A study of Mus musculus with 8 samples.

Results

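The genes of the cytosolic ribosomal proteins were followed in mouse Th1 cells through 2 experiments. The members were the gene names of the form Rpl or Rps with a number, the P stalk genes Rplp0, Rplp1 and Rplp2, and Rpsa, without pseudogenes and without the Rps6k kinases. This rule gave 83 genes of the 33924 gene names in the authors' tables, 33 of the small subunit, 47 of the large subunit and 3 of the P stalk. Of the 83, 76 are core subunits and 7 are paralogs of a core gene (Rpl3l, Rpl7l1, Rpl10l, Rpl22l1, Rpl39l, Rps27l and Rps4y2). All cells were C57BL/6 T cells, labelled CD4, that were activated with antibodies to CD3 and CD28 and differentiated with IL-12 at 2 ng/ml in the presence of an antibody to IL-4 at 5 µg/ml. In the knockdown experiment they carried a scrambled short hairpin RNA or a hairpin against Pcbp1, an RNA-binding protein that also hands iron to ferritin, and total RNA depleted of ribosomal RNA was sequenced. In the chelation experiment cells received CPX (ciclopirox olamine, an iron chelator) or its solvent DMSO, and the labels give polyA RNA. Each of the 4 groups held 2 libraries, 8 in all. The labels do not say that the libraries of a group came from separate cultures or animals, so p-values measure only the spread between these samples, which may be technical. The sources used here do not give the number of hairpins, the CPX dose or the length of treatment.

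Ribosomal proteins are made in the cytosol, carried into the nucleolus and built onto ribosomal RNA there, so each subunit needs its proteins in nearly equal numbers. Their mRNAs begin at a C followed by a run of pyrimidines, the 5' terminal oligopyrimidine (TOP) motif, through which mTOR and the RNA-binding protein LARP1 set their translation and stability together. Activated T cells expand their ribosomes before they divide, and MYC drives much of that expansion. Some members have another role when they are not in a ribosome: RPL5 and RPL11 bind MDM2 and so stabilise p53. Mammalian genomes hold many processed pseudogenes of these genes, copies that can resemble the parent along its whole coding sequence.

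The start-site sequences are shown because most members moved together in the knockdown and because the pyrimidine run is the element the family is known to share. They come from RefSeq (mouse GRCm38.p6), which gave a promoter for 62 members. Each window is 60 bases long, 40 before the listed transcription start and 20 from it on, the latter lying in the first exon. The letters searched for were a C followed by at least 4 further C or T, on the gene's own strand, beginning within 5 bases of the start. The run is in capitals. The first set holds members with a run: Rpl39 (chrX:37085203-37085262, minus strand), Rps15a (chr7:118116128-118116187, minus strand) and Rpl22l1 (chr3:28805468-28805527, plus strand) are among the largest falls in the knockdown, Rps27 (chr3:90213629-90213688, minus strand) is the largest rise with CPX, and Rpl13a (chr7:45128726-45128785, minus strand), Rps6 (chr4:86857348-86857407, minus strand) and the first of the listed starts of Rps27l (chr9:66946046-66946105, plus strand) are described further on.
Rpl39: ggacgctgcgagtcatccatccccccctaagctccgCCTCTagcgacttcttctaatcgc
Rps15a: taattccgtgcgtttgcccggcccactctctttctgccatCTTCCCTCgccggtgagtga
Rpl22l1: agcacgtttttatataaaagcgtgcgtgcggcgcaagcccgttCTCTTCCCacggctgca
Rps27: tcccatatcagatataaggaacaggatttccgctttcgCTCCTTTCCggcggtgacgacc
Rpl13a: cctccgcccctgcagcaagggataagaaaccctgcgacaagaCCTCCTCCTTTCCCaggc
Rps6: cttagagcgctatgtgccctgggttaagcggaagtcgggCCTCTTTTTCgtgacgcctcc
Rps27l: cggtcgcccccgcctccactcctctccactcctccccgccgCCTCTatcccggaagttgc
The second set holds members without such a run at the listed start: Rpl26 (chr11:68901526-68901585, plus strand) and Rpsa (chr9:120127726-120127785, plus strand) fell in the knockdown, Rpl11 (chr4:136053374-136053433, minus strand) rose, Rps16 (chr7:28350649-28350708, plus strand) had the largest positive fold change on few reads, and Rpl7l1 (chr17:46782637-46782696, minus strand) fell with CPX.
Rpl26: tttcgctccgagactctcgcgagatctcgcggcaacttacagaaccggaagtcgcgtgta
Rpsa: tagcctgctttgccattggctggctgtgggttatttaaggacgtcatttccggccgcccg
Rpl11: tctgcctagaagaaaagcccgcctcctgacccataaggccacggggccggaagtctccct
Rps16: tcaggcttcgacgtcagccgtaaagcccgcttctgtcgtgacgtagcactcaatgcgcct
Rpl7l1: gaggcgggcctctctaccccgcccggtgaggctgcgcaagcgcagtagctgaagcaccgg
A run stood at a listed start of 29 of the 62 members (46.8%), and of 21.2% of the 27025 genes with a promoter in that table. Over all genes tested, 26.7% were called lower and 29.3% higher in the knockdown, and 24.8% lower and 19.9% higher with CPX (adjusted p under 0.05, tests as described further on). In the knockdown 23 of the 29 members with a run were called lower and 2 higher (median log2 fold change -0.71). Of the 30 tested members without one, 23 were called lower and 3 higher (median -0.52). With CPX each class held 1 member called lower and 3 called higher, with a median of 0.41 in both. A listed start can lie some bases from the start used in these cells, and the classes were not compared by a test.

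Gene counts summed to 14174293 to 15518303 reads in a hairpin library, and to 19193784 to 19662145 units in a CPX or DMSO library, where the table is rescaled and 1 unit stands for 1.98 reads. Levels are given as RPM, a gene's value scaled to its library's total. Pcbp1 stood at 44.0 and 51.7 RPM with the scrambled hairpin and at 15.1 and 16.1 RPM with the Pcbp1 hairpin. It also stood lower with CPX (238 and 199 RPM) than with DMSO (506 and 538 RPM). All 11 T cell and Th1 markers of the list were measured, Cd4 at 42.8 to 405 RPM and Cd3e at 39.0 to 184 RPM over the 8 libraries. CD8 T cell markers summed to 90.5 and 92.0 RPM in replicate 1 of the scrambled and Pcbp1 hairpin groups and to 11.9 and 11.6 RPM in replicate 2. Replicate 1 was above replicate 2 for 78 of 83 members in the DMSO group and for 78 in the CPX group. The summed RPM of the 11 Th1 and CD4 markers was lower with the Pcbp1 hairpin (26060 and 20240) than with the scrambled one (51890 and 42490), and lower with CPX (2629 and 6492) than with DMSO (15210 and 25730). Except in CPX replicate 1, most of each sum was Ifng. Without it the other 10 markers summed to 1511 and 1533 RPM against 1238 and 1254 RPM in the knockdown, and to 1188 and 1929 RPM with DMSO against 1523 and 1509 RPM with CPX, where the groups overlapped. In the knockdown 4 of the 11 were called higher and 5 lower by edgeR. With CPX 1 of the 11 was called higher and 6 lower by limma (median log2 fold change -0.75). The part of these markers in the values of the members was not tested.

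After the knockdown of Pcbp1 most ribosomal protein mRNAs fell. The largest falls, all in core genes but for the paralogs Rpl22l1 and Rps27l, were by 2.04 to 2.32-fold, and a few members, among them Rpl11, rose. Of the 79 members that passed the filter (at least 1 RPM in 2 of the 4 libraries), 57 were called lower and 7 higher, and 15 were not called. Of the 7, Rps16 passed the filter only through the group in which it was high. The test was edgeR's quasi-likelihood test with Benjamini-Hochberg adjustment over all genes, at an adjusted p under 0.05. Over all 11575 genes tested, 56% were called, 26.7% lower and 29.3% higher. The median log2 fold change was -0.55 for the members (quartiles -0.79 and -0.18) and 0.00 for all genes. Both Pcbp1 hairpin libraries lay below both scrambled libraries in 58 members, above them in 13, and the groups overlapped in 8, whereas over all genes tested 32.7% lay below and 45.8% above. The fold changes carry TMM scaling and RPM do not, so the ratio of the RPM can depart from the fold change. In bulk RNA, fewer cells of a type and less RNA per cell cannot be told apart.

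Both subunits and the stalk took part. Of 32 small subunit genes 24 fell and 4 rose (median -0.65), of 44 large subunit genes 30 fell and 3 rose (median -0.48), and all 3 P stalk genes fell. The difference between the subunits was not tested. With transcript length and GC content taken out before limma, 42 members fell and 13 rose, with a median of -0.31. The members are short, with a median transcript of 886 bases against 2828 bases for all genes tested.

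**Figure D1:**
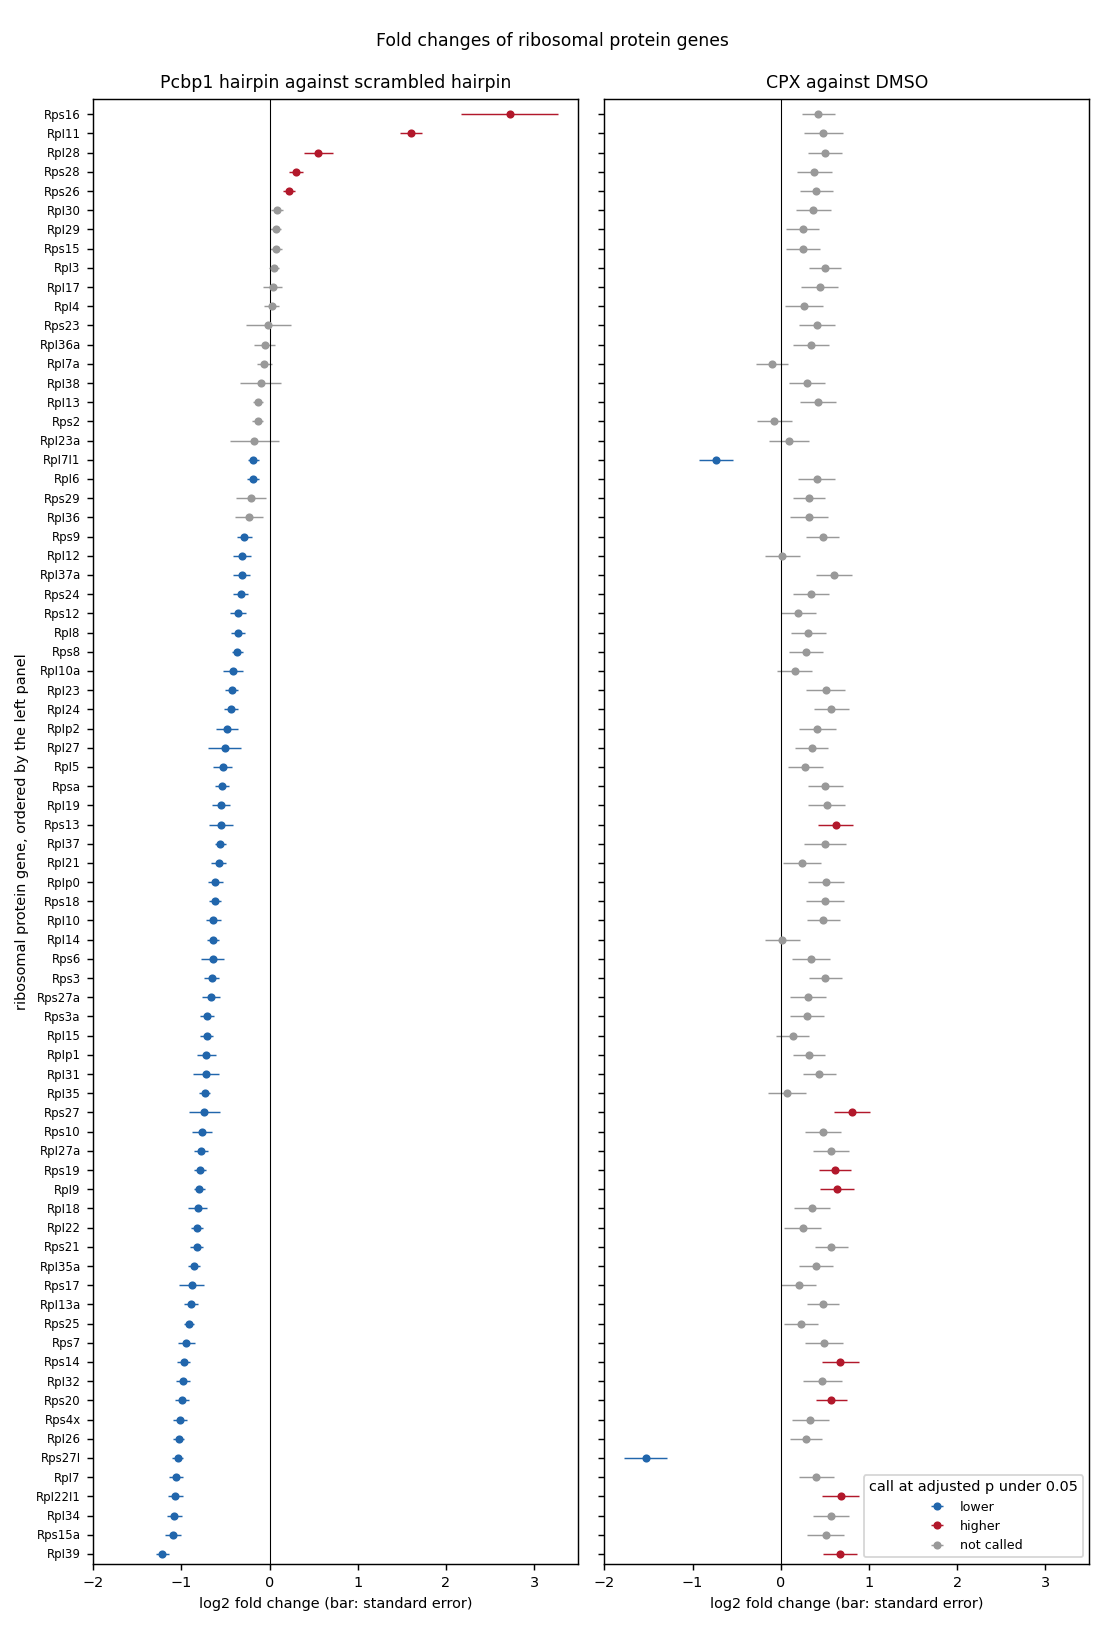
Log2 fold change of 76 of the 79 members tested in the knockdown (left, Pcbp1 hairpin against scrambled, edgeR) and the same genes with CPX (right, CPX against DMSO, limma), ordered by the left panel. Points are fold changes, bars their standard errors (worked back from the F statistic on the left, from limma on the right), and colour is the call. Not drawn are 3 members that are not reported by name, 2 of them among the 7 called higher. Of the genes drawn, 56 are called lower and 5 higher on the left, and 8 higher and 2 lower on the right.

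Rpl39, a very small protein that lines the tunnel through which the new peptide leaves the large subunit, fell furthest. Its level was 693 and 734 RPM with the scrambled and 346 and 316 RPM with the Pcbp1 hairpin, a log2 fold change of -1.22 (SE 0.08, edgeR, adjusted p = 2.40e-05). Rps15a, a core protein of the small subunit, stood at 962 and 1031 RPM against 542 and 465 RPM (-1.09, SE 0.09, adjusted p = 6.36e-05 by edgeR). Rpl34 of the large subunit stood at 403 and 417 RPM against 225 and 193 RPM (-1.08, SE 0.08). In each of these 3 genes the groups were well apart, and the 2 libraries of a group differed by far less than the groups did.

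Rpl7, a large subunit protein, went from 1992 and 2098 RPM to 1070 and 1040 RPM (-1.06, SE 0.08, edgeR, adjusted p = 4.24e-05). Rpl26, which lies close to the mouth of the exit tunnel, went from 628 and 640 RPM to 336 and 332 RPM (-1.03, SE 0.07, adjusted p = 2.49e-05 by edgeR). Of the genes with another known role, Rps14, whose loss underlies an acquired human anaemia, stood at 1078 and 1097 RPM against 598 and 593 RPM (-0.98 by edgeR). Rps19, mutated in Diamond-Blackfan anaemia, stood at 650 and 655 RPM against 420 and 395 RPM (-0.79). Rpl13a, which also takes part in a complex that silences inflammatory mRNAs, stood at 2347 and 2410 RPM against 1418 and 1337 RPM (-0.90). The groups did not overlap in any of these 5 genes.

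Rps6, the substrate of the S6 kinases, stood at 20.2 and 21.7 RPM against 15.9 and 12.9 RPM (-0.64, adjusted p = 0.00403 by edgeR). Rps3, which also acts in DNA repair, was among the highest members at 2603 and 2790 RPM against 1885 and 1797 RPM (-0.66, adjusted p = 0.000495 by edgeR). Its call was lost with limma after quantile normalization (-0.20, adjusted p = 0.0952). Rpl10, which joins the large subunit late and readies it for translation, stood at 64.4 and 61.0 RPM against 46.0 and 40.7 RPM (-0.64). Rps27a, made as a fusion with ubiquitin, stood at 44.2 and 40.4 RPM against 30.0 and 27.3 RPM (-0.67). All 4 were lower in both Pcbp1 hairpin libraries. The coding stretches of 50 bases of Rps6, Rpl10 and Rps27a all occur in another annotated gene too, so the counts of these genes are uncertain. Rpl38, needed for the translation of certain Hox mRNAs in the mouse embryo, was not called (3.53 and 4.68 against 4.45 and 3.78 RPM, -0.10, SE 0.23, edgeR, adjusted p = 0.724), and its groups overlapped at 50 to 69 reads a library. Its pseudogene Rpl38-ps2 was counted at 2881 and 3127 reads against 2414 and 1902 reads (-0.65, edgeR, adjusted p = 0.000418). Every coding stretch of 50 bases of Rpl38 also occurs in another annotated gene, so reads of the parent and the copy may not be separable. Of 13 alternatives, 1 gave a call for Rpl38.

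The P stalk, which recruits the GTPases of translation to the ribosome, fell in all 3 genes. Rplp0, its scaffold, went from 2795 and 2747 RPM with the scrambled hairpin to 1958 and 1939 RPM with the Pcbp1 hairpin (-0.61, SE 0.08, edgeR, adjusted p = 0.000500), a call lost with limma after quantile normalization (-0.15, adjusted p = 0.166). Rplp1 stood at 1387 and 1464 RPM against 1034 and 832 RPM (-0.72) and Rplp2 at 235 and 263 RPM against 219 and 164 RPM (-0.48, adjusted p = 0.0133 by edgeR). Rpsa, the small subunit protein also known as the laminin receptor, stood at 927 and 997 RPM against 751 and 675 RPM (-0.54). In all 4 genes the Pcbp1 hairpin libraries were the lower ones.

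RPL5 and RPL11 bind MDM2 as a pair, yet their mRNAs went in opposite directions. Rpl5 stood at 41.3 and 42.0 RPM against 33.6 and 28.5 RPM (-0.53, SE 0.11, edgeR, adjusted p = 0.00393), a call lost with length and GC content taken out (-0.15, adjusted p = 0.228). Rpl11 stood at 7.34 and 6.70 RPM against 22.2 and 23.8 RPM (1.60, SE 0.13, edgeR, adjusted p = 5.01e-05). Rpl11 kept a value between 1.47 and 1.77 and its call in the 14 alternatives tried. Every coding stretch of 50 bases of Rpl5 and of Rpl11 also occurs in another annotated gene, so the counts of both are uncertain.

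Rps16 had the largest positive fold change and the fewest reads of the 79 members tested. It was counted at 7 and 1 reads with the scrambled hairpin (0.494 and 0.0698 RPM) and at 33 and 28 reads with the Pcbp1 hairpin (2.13 and 1.96 RPM), a log2 fold change of 2.72 (SE 0.55, edgeR, adjusted p = 0.00407). Since it passed the filter only through the group in which it was high, its value is a description and its p supports nothing. The value was 4.61 without scrambled replicate 1 and 1.93 without scrambled replicate 2, and the authors' deposited table gives 1.44. Rps16-ps2, a pseudogene of Rps16, was counted at 69 and 57 reads against 403 and 547 reads (2.75, edgeR, adjusted p = 5.98e-05), and reads of the parent and the copy may not be separable.

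The remaining rises were small. Rpl28 stood at 5.43 and 5.31 RPM against 9.15 and 7.83 RPM (0.55, adjusted p = 0.0255 by edgeR), but summed with its named pseudogenes it was at -0.04 (adjusted p = 0.703). Rps28 stood at 187 and 179 RPM against 228 and 258 RPM (0.30). The coding stretches of 50 bases of Rpl28 and Rps28 all occur in another annotated gene too, so the counts of both are uncertain. Rps26, which lies where the mRNA leaves the small subunit, stood at 237 and 233 RPM against 285 and 304 RPM (0.22, adjusted p = 0.0241 by edgeR). The call of Rpl28 ended with DESeq2 and without scrambled replicate 1, scrambled replicate 2 or Pcbp1 hairpin replicate 1. That of Rps26 ended with DESeq2 and without scrambled replicate 1, scrambled replicate 2 or Pcbp1 hairpin replicate 2. That of Rps28 ended only without Pcbp1 hairpin replicate 2 (0.18, adjusted p = 0.0914 by edgeR). Without scrambled replicate 1, or without Pcbp1 hairpin replicate 2, 4 members rose, and with DESeq2 3 did.

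**Figure D2:**
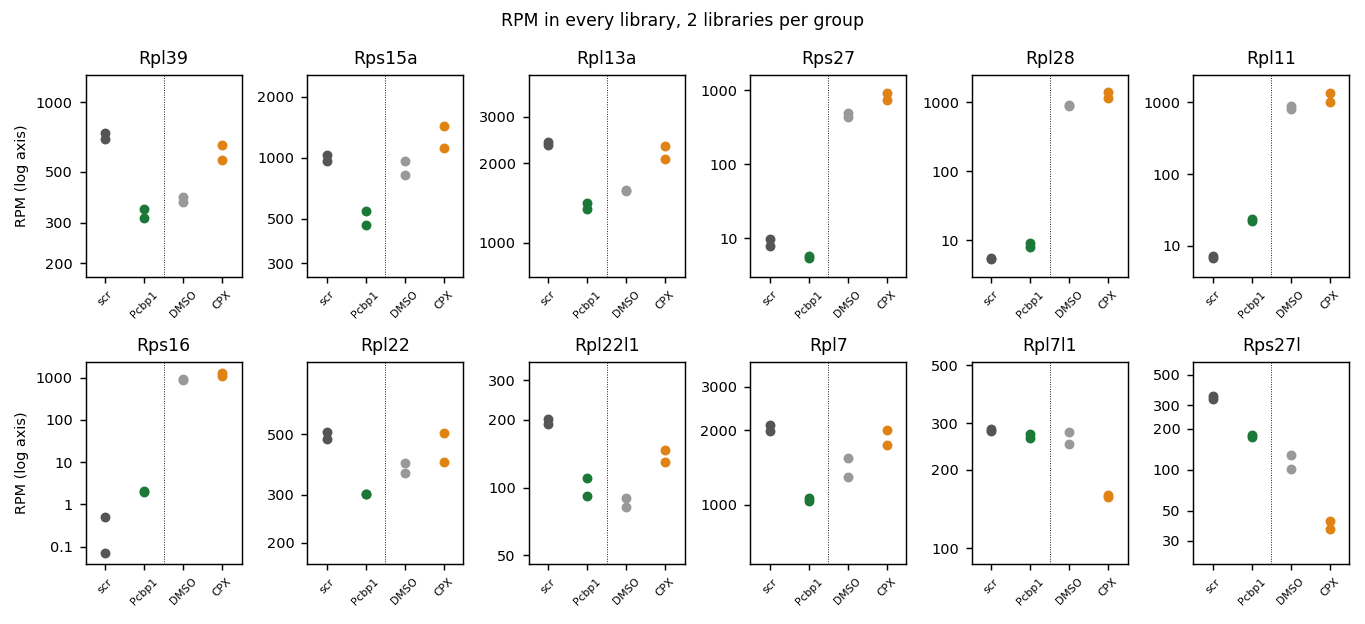
RPM on a log axis of 12 members in each of the 8 libraries (scr: scrambled hairpin, Pcbp1: Pcbp1 hairpin, then DMSO and CPX), with 1 point per library and a dotted line between the experiments, whose levels are not comparable. Rpl39, Rps15a, Rpl13a, Rpl7 and Rpl22l1 stand lower with the Pcbp1 hairpin and higher with CPX, Rpl11 and Rps16 are higher with the Pcbp1 hairpin, and Rpl7l1 and Rps27l are lower in both.

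Among the paralogs, 3 were measured above the filter in the knockdown and all 3 fell. Rpl22l1, a paralog of Rpl22, stood at 202 and 193 RPM against 110 and 92.0 RPM (-1.07, SE 0.09, edgeR, adjusted p = 5.14e-05), with -0.21 and no call once length and GC content were taken out (adjusted p = 0.0623). Its parent Rpl22, which developing T cells of the alpha beta lineage need, stood at 482 and 511 RPM against 302 and 302 RPM (-0.83). Rps27l, a paralog of Rps27 that p53 can induce, stood at 347 and 333 RPM against 176 and 179 RPM (-1.04, SE 0.06, edgeR, adjusted p = 2.01e-05). Its parent Rps27 went from 7.83 and 9.64 RPM to 5.80 and 5.46 RPM (-0.74, adjusted p = 0.00950 by edgeR). The coding stretches of 50 bases of Rps27 all occur in another annotated gene too, so its counts are uncertain. Rpl7l1, an assembly-stage relative of Rpl7, moved least (280 and 287 against 263 and 273 RPM, -0.18, edgeR, adjusted p = 0.0386), and its call ended in 5 of 14 alternatives, among them leaving out scrambled replicate 1, scrambled replicate 2 or Pcbp1 hairpin replicate 1. Rpl10l, Rpl39l, Rpl3l and Rps4y2 were under the filter in the knockdown, none of them above 2.16 RPM in any of those 4 libraries.

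With CPX the members lay mostly above DMSO, by amounts near 1.3-fold, and 10 passed the test. Of 80 members tested, 8 were called higher and 2 lower (limma on log2(RPM + 0.5), Benjamini-Hochberg adjustment over all genes), and 70 were not called. Over all 11466 genes tested, 44.7% were called, 19.9% higher and 24.8% lower, so the share of members called was below that of all genes. The median log2 fold change was 0.40 for the members and -0.12 for all genes, and 75 of the 80 members were above 0. Both CPX libraries lay above both DMSO libraries in 65 members and below them in 3, and the groups overlapped in 12, whereas over all genes tested 34.2% lay above and 42.2% below. The SE of a member ranged from 0.18 to 0.29. With limma, 0 members were called higher without DMSO replicate 1 (1 at an unadjusted p under 0.05) and 0 without DMSO replicate 2 (0 at an unadjusted p under 0.05). Without CPX replicate 1, 1 member was called higher and the median was 0.24, and without CPX replicate 2, 11 were and it was 0.54.

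Rps27, a zinc finger protein of the small subunit, rose most, from 496 and 438 RPM with DMSO to 908 and 735 RPM with CPX (log2 fold change 0.81, SE 0.20, limma, adjusted p = 0.0248). Rpl22l1 rose from 90.02 and 82.3 RPM to 130 and 147 RPM (0.68, SE 0.21, adjusted p = 0.0443 by limma). Rpl39 rose from 390 and 368 RPM to 651 and 561 RPM (0.67, SE 0.19, limma, adjusted p = 0.0342). The other 5 were Rps14 (0.68), Rpl9 (0.64), Rps13 (0.62), Rps19 (0.62) and Rps20 (0.57), all called at an adjusted p between 0.0379 and 0.0489 by limma. The calls of Rps14, Rpl9 and Rps13 were lost with TMM scaling (0.80, 0.77 and 0.75 in turn). They were also lost with limma after quantile normalization (0.57, 0.50 and 0.50), as was that of Rps19 (0.47). The 8 members called higher with CPX were all among the 57 called lower in the knockdown.

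Both members that fell with CPX were paralogs. Rps27l went from 102 and 129 RPM with DMSO to 36.5 and 42.2 RPM with CPX (-1.53, SE 0.24, limma, adjusted p = 0.00640), the reverse of its parent Rps27. Its call was lost only without DMSO replicate 2 (-1.36, adjusted p = 0.0789). Rpl7l1 stood at 279 and 251 RPM against 160 and 157 RPM (-0.74, SE 0.19, limma, adjusted p = 0.0269), while its parent Rpl7 stood at 1550 and 1295 RPM against 2009 and 1743 RPM (0.40, adjusted p = 0.153 by limma). The Rpl7l1 call ended in 6 of 15 alternatives, both without a DMSO library and both with TMM scaling among them. Rps4y2, a paralog of Rps4x, was low in all libraries (2.39 and 2.00 RPM against 1.46 and 1.14 RPM, -0.58, limma, adjusted p = 0.153). The Rpl10l, Rpl39l and Rpl3l mRNAs were again under the filter, with no more than 0.966 RPM in any DMSO or CPX library.

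Of the members with other roles, Rps14 and Rps19 were called higher, as given above, and the others were not called. Rpl11 stood at 877 and 800 RPM against 1360 and 1004 RPM (0.48, SE 0.22, limma, adjusted p = 0.128) and Rpl5 at 1593 and 1418 RPM against 1992 and 1664 RPM (0.28, limma, adjusted p = 0.294). Rplp0 stood at 3508 and 3119 RPM against 5154 and 4326 RPM (0.51, limma, adjusted p = 0.0859) and Rpsa at 3297 and 2953 RPM against 4827 and 4060 RPM (0.50, limma, adjusted p = 0.0880). Rps6 (0.34), Rps3 (0.50), Rpl10 (0.48), Rpl13a (0.48), Rpl22 (0.25), Rps27a (0.31), Rpl38 (0.29), Rplp1 (0.32) and Rplp2 (0.41) were not called either. Rpl7a (-0.10) and Rps2 (-0.07), chosen after their values were seen, were the core members below 0.

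Markers of several other cell types stood higher in the CPX libraries than in the DMSO libraries, and those of others did not. Macrophage and monocyte markers, 2 of 6 measured, summed to 1.12 and 3.02 RPM with DMSO and to 17.8 and 20.6 RPM with CPX. Dendritic cell markers, 5 of 5 measured, summed to 5.39 and 5.06 RPM against 36.5 and 34.8 RPM, and neutrophil markers, 1 of 5 measured, to 0.0509 and 0.00 RPM against 7.19 and 5.35 RPM. B cell markers (2 of 5 measured) summed to 0.661 and 0.512 RPM against 2.29 and 2.70 RPM, and fibroblast markers (1 of 5) to 0.203 and 0.460 RPM against 4.32 and 3.12 RPM. CD8 T cell markers (2 of 2) were lower with CPX, 8.09 and 8.24 RPM against 4.12 and 3.74 RPM. The NK markers (1 of 3) overlapped, 7.99 and 6.34 RPM against 18.8 and 7.69 RPM, and the erythroid sum was 0.00 in all 4 libraries. Elane, S100a8, Ms4a1, Ncr1, Hbb-b1, Alas2, Col1a2, Col3a1 and Dcn are listed at 0 in the authors' CPX table, and no listed macrophage or dendritic marker is. The part of these cells in the CPX values of the members was not tested.

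The knockdown and CPX effects were then compared in a single limma fit over all 8 libraries, as the effect of the knockdown minus that of CPX. Of 79 members tested, 49 were called lower, that is further down or less far up in the knockdown, and 3 higher. Over all 10430 genes, 51.3% were called, 16.1% lower and 35.2% higher. The median of the difference was -0.80 for the members and 0.40 for all genes. With TMM scaling the median of all genes moved to 0.04 and that of the members to -1.18, and 57 members were called lower and 1 higher. In direction, 62 of the 79 members were below 0 in the knockdown and above 0 with CPX, 13 above 0 in both, 4 below 0 in both, and 0 above 0 in the knockdown and below 0 with CPX. Over all genes tested, 5773 of 11575 were below 0 in the knockdown and 5293 of 11466 above 0 with CPX. The joint patterns were not counted over all genes. The experiments also differed in RNA selection, hairpin transduction and library totals, and these cannot be told apart from the perturbations.

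**Figure D3:**
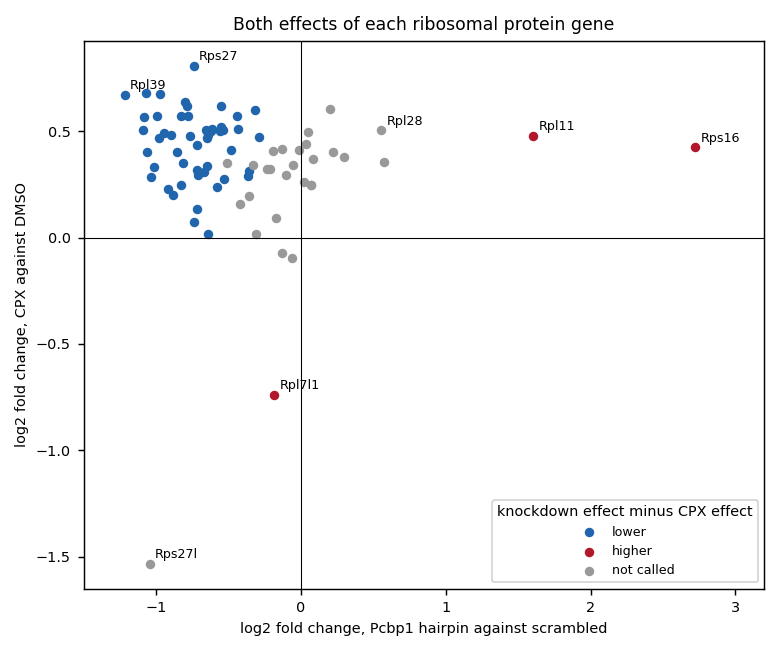
Log2 fold change in the knockdown (x axis) and with CPX (y axis) for the 79 members tested in both, 1 point per gene, coloured by the call on the difference (knockdown minus CPX, limma over all 8 libraries). Most points lie in the upper left, 49 are called lower, and Rps16, Rpl11 and Rpl7l1 are called higher.

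Rpl39 had the largest difference, at -1.78 (SE 0.18, limma, adjusted p = 0.000284), followed by Rpl22l1 at -1.65, Rpl34 at -1.54, Rps14 at -1.54, Rps15a at -1.49 and Rps20 at -1.46. Higher in the knockdown than with CPX were Rps16 (1.33, SE 0.36, limma, adjusted p = 0.0189), Rpl11 (1.16, SE 0.24, adjusted p = 0.00568) and Rpl7l1 (0.66, SE 0.16, adjusted p = 0.0114). The Rps16 value is set by the pseudocount, with 2.33 at 0.1 and 0.41 at 2, and is a description only. Its call ended in 7 of 16 alternatives, among them leaving out either Pcbp1 hairpin or either DMSO library, and that of Rpl11 in 1, TMM factors from other genes only (0.78, limma, adjusted p = 0.0530). The Rpl7l1 call was lost with TMM scaling (0.28, limma, adjusted p = 0.256) and with length and GC content taken out (0.12, adjusted p = 0.624), and without scrambled replicate 1 or Pcbp1 hairpin replicate 2. Rps27l, called lower in both experiments, did not differ past the threshold (0.60, SE 0.21, limma, adjusted p = 0.0504).

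Summed over the 83 members, ribosomal protein mRNA made up 4.01% and 4.13% of the reads with the scrambled hairpin and 2.95% and 2.85% with the Pcbp1 hairpin, a ratio of the group means of 0.712. It made up 8.79% and 7.92% of the total with DMSO and 11.97% and 9.88% with CPX, a ratio of 1.31. The groups did not overlap in either experiment. With 2 libraries against 2 an exact permutation test could not reach the threshold, so none was run on the sums. The small subunit genes gave 1.802% and 1.87% against 1.32% and 1.29% in the knockdown, and the large subunit genes 1.76% and 1.82% against 1.31% and 1.27%. The sum of the 7 paralogs was lower with CPX (328 and 348 RPM) than with DMSO (475 and 464 RPM), the reverse of the whole family. This sum was carried by Rpl7l1 and Rps27l, which fell, while Rpl22l1 rose, as given above.

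**Figure D4:**
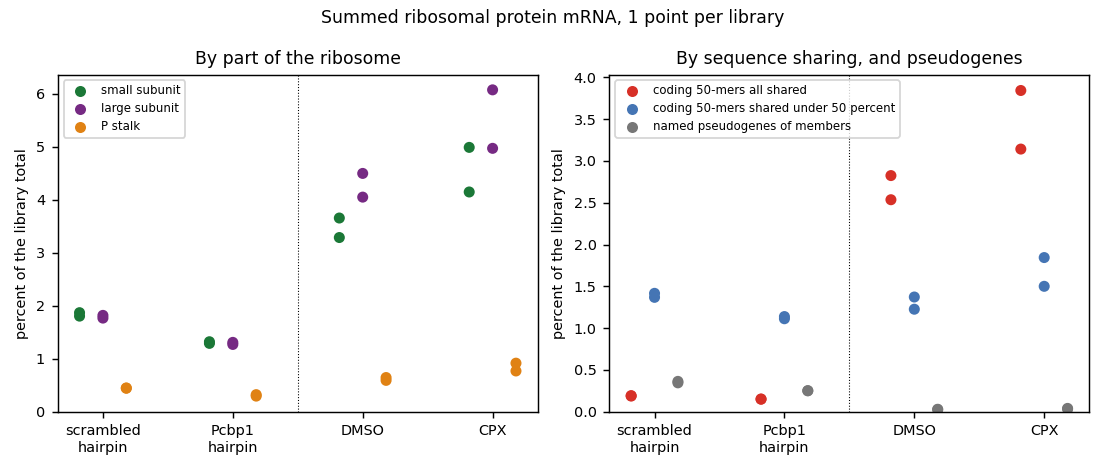
Share of each library's total in percent, 1 point per library, for the small subunit, large subunit and P stalk genes (left) and for the 28 members whose coding 50-mers all occur in another gene, the 15 with under 50% of them and the 68 named pseudogenes (right). Every class on the left is lower with the Pcbp1 hairpin and higher with CPX than its control, and the members with all 50-mers shared stand low in the knockdown experiment.

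Within an experiment the members were far from equal in level per coding length. Among the 76 core genes, level per coding kb in the scrambled libraries ran from 0.643 RPM (Rps16) through a median of 535 RPM to 4768 RPM (Rpl32), a 7409-fold range. Its lower end rests on 7 and 1 reads of Rps16, and the range was 30410-fold without scrambled replicate 1 and 4158-fold without scrambled replicate 2. With DMSO it ran from 980 RPM (Rpl22) through 2052 RPM to 6851 RPM (Rps29), a 6.99-fold range. Rps29 ranked 68 of 82 in the scrambled libraries at 44.7 RPM per coding kb and ranked 1 with DMSO. Rpl23a stood at 3.83 RPM per coding kb in the scrambled and at 2505 RPM in the DMSO libraries. These 5 genes were picked for their place in the range after the values were seen, and levels are set side by side only, since the libraries were selected and scaled in different ways.

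The low levels in the knockdown experiment went with sequence shared with other genes. For 28 of the 82 members with a coding sequence, every coding stretch of 50 bases also occurs in a transcript of another annotated gene (GENCODE vM21). Their median level was 81.1 RPM per coding kb in the scrambled libraries and 2006 RPM with DMSO. For the 15 members with under 50% of such stretches, among them 5 paralogs, the medians were 1450 and 1391 RPM per coding kb. The 28 summed to 0.187% and 0.192% of the scrambled libraries and to 2.83% and 2.54% of the DMSO libraries, while the 15 summed to 1.37% and 1.42% and to 1.37% and 1.23%. The 68 named pseudogenes went the other way, with 0.363% and 0.345% of the scrambled and 0.0288% and 0.0248% of the DMSO libraries. The sources used here do not say how reads that map to several genes were counted in each experiment, and the cause was not tested.

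**Figure D5:**
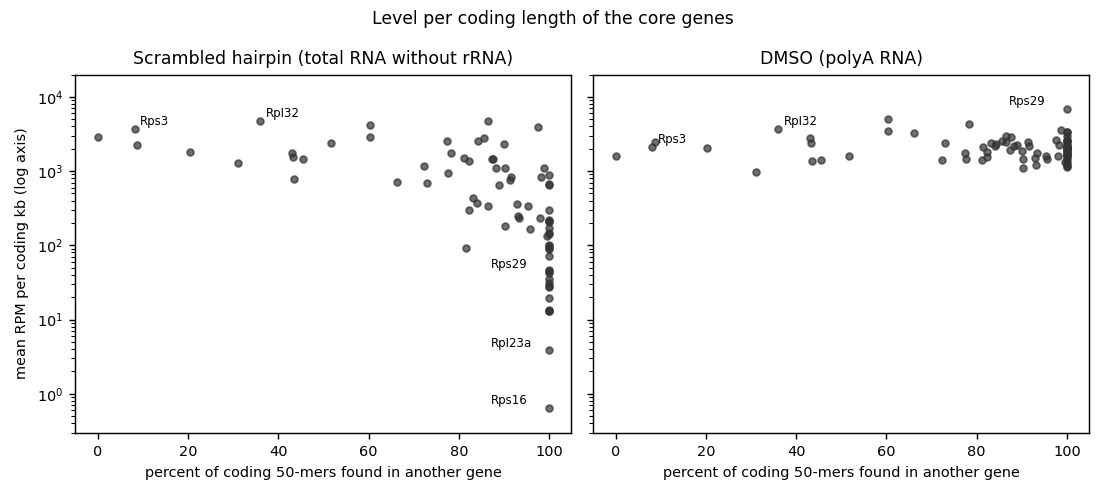
Mean RPM per coding kb (log axis) of the 76 core genes against the percent of their coding 50-mers found in another gene, for the scrambled hairpin (left) and DMSO (right) libraries, 1 point per gene. On the left the genes at 100% spread down to 0.643 (Rps16), and on the right they lie among the others.

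The knockdown calls were counted within each class of shared sequence, beside 26.7% of all genes called lower and 29.3% higher. Of the 12 tested members with under 50% of stretches shared, 9 fell and 1 rose (median -0.50). Of the 28 members with all stretches shared 17 fell and 4 rose (median -0.48), and of the 39 between these classes 31 fell and 2 rose (median -0.64). Summing each member with its named pseudogenes left 59 members called lower and 6 higher in the knockdown.

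For each list that follows, the shares of all genes tested were 26.7% lower and 29.3% higher in the knockdown and 24.8% lower and 19.9% higher with CPX. The ribosomal proteins outside the name rule and the other mRNAs known to carry a TOP motif were set beside the members. Of 4 such ribosomal protein genes measured, 2 fell in the knockdown, Gnb2l1 (RACK1, the signalling scaffold on the small subunit) from 3352 and 3517 RPM to 2362 and 2390 RPM (-0.64) and Rpl36al (-0.62). With CPX 1 of the 4 rose, Fau, which encodes RPS30 (0.86, limma, adjusted p = 0.0234). Of 26 other TOP mRNAs, 16 fell and 8 rose in the knockdown (median -0.42), and 4 fell and 4 rose with CPX (median 0.08). Eif3m (-1.04) and the snoRNA host Snhg1 (-0.91) were among the falls of the knockdown by edgeR, while Eif3a (1.24) and Eif3g (0.99), also subunits of the initiation factor eIF3, rose. With CPX Snhg1 (1.36), the growth-related protein gene Tpt1 (0.89) and Vim (1.25) rose and Npm1 (-0.93), which encodes a nucleolar chaperone, fell by limma.

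Genes that assemble ribosomes or control their synthesis were counted in the same way. Of 28 chaperones and assembly factors tested in the knockdown 13 rose and 7 fell (median 0.19), Rrs1 (2.87), Bysl (1.65) and Bccip (1.14) being among the rises and Rpf2 (-0.90) among the falls. With CPX 14 of 29 fell and 2 rose (median -0.86), Nle1 (-2.76), Heatr3 (-2.85) and Bysl (-2.10) being among the falls. Of the mTOR and MYC list 11 of 19 rose and 1 fell in the knockdown, with Larp1 at 1.59 and Eif4ebp2, a repressor of cap-dependent translation, at 2.14. Myc also rose there, from 364 and 449 RPM with the scrambled to 781 and 917 RPM with the Pcbp1 hairpin (0.96, edgeR, adjusted p = 0.000467). With CPX 9 of 20 fell and 3 rose: Myc went from 1552 and 1263 RPM with DMSO to 56.9 and 45.01 RPM with CPX (-4.78, limma, adjusted p = 0.00241), while Rheb, the activator of mTOR, rose by 1.70. Of 15 genes of p53 and ribosomal protein surveillance 9 rose and 3 fell in the knockdown and 6 rose and 3 fell with CPX, with Trp53 at 1.99 and 1.34 in turn. The 3 falls of the knockdown were Cdkn1a (-0.32), Pmaip1 (-0.67) and Ccng1 (-0.71). With CPX Cdkn1a (1.98) and Pmaip1 (2.08) rose and Ccng1 (-1.32) fell. Of 16 genes of ribosome rescue and quality control 6 rose and 4 fell in the knockdown and 2 rose and 4 fell with CPX, of which the falls were near the shares of all genes in both.

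The mitochondrial ribosomal proteins, which serve the separate ribosome of that organelle, were counted beside them. Of 75 genes 49 fell and 11 rose in the knockdown (median -0.48), and 46 fell and 0 rose with CPX (limma, median -1.32, 0 higher at an unadjusted p under 0.05 too). Mrps2 went from 106 and 97.8 RPM with DMSO to 12.8 and 13.9 RPM with CPX (-2.88, limma, adjusted p = 0.00241), and Mrps5 was at -2.97. The knockdown minus CPX difference was called higher in 43 and lower in 5 of the 75, with a median of 0.97, against 3 and 49 of 79 cytosolic members with a median of -0.80. The lists themselves were not compared by a test.

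The authors' deposited tables give similar counts in the knockdown and fewer with CPX. They give an adjusted p for 80 members in the knockdown, of which 53 are called lower and 6 higher, beside 43.6% of all their genes called in either direction. In the authors' deposited table for CPX, 1 of 81 members is called lower, Rps27l (-1.502, adjusted p = 3.91e-05), and 1 higher, Rps27 (0.82, adjusted p = 0.0434), beside 41.3% of all genes called.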

How the data were processed

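RNA was sequenced from 8 libraries of mouse Th1 cells. Build mm9 and the tools STAR, HTSeq, cutadapt and DESeq are named, without versions, in the submitters' processing notes. The authors' table named RPM holds raw counts for the knockdown and, for CPX, counts rescaled by a common factor and rounded, treated here as a score, although RPM had been assumed. Its gene labels are displaced after a constant line: 81 members were placed by the mean signal in both deposited result tables and 2 by label order. Those tables also hold, per the file headers, log2 fold changes with standard errors, Wald statistics (score) and p-values of DESeq2.

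RPM was computed from library totals. Genes with at least 1 RPM in 2 of 4 libraries were tested with edgeR 4.0.16 (quasi-likelihood, TMM) on counts or limma 3.58.1 (trended) on log2(RPM + 0.5) in R 4.3.3. Scripts were tested on simulated data. Members, lists and tests were chosen with earlier results of these data known. Named genes were, per comparison, the 6 largest called rises and falls without overlap, members called against the majority, paralogs, stalk genes, Rpsa and 11 genes with other roles. Of each other list at most 4 genes were named in each experiment. Alternatives covered each library left out, scaling, filters, pseudocounts, pseudogenes, length and GC, and DESeq2 1.42.0. Results for a few genes, counted in the totals, are not reported here by name.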

Additional observations from a re-analysis of the deposited data

How the results depend on the processing

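The falls in the knockdown were between 42 and 59 members in every alternative and the rises between 3 and 13. Leaving out 1 library, where the lone library of a group is assumed to vary like the others, gave 48 to 55 falls, 4 to 6 rises and a median of -0.61 to -0.54. After removal of length and GC effects 13 rose (median -0.31), with DESeq2 3 rose, and limma gave a median of -0.45. The CPX calls depended on single libraries. Leaving out 1 library gave 0 to 11 rises, 0 to 2 falls and a median of 0.24 to 0.54. Rises numbered 4 with no filter, with TMM scaling and with TMM factors from other genes only, 3 with limma after quantile normalization and 0 with limma and no trend of the variance (4 at an unadjusted p under 0.05). Falls numbered 1 with length and GC content taken out, with both TMM settings and with no trend of the variance. The difference gave 34 to 60 members lower and 1 to 4 higher with 1 library left out. With TMM scaling 1 was higher (median -1.18), and with TMM factors from other genes only 0 were by limma (2 at an unadjusted p under 0.05, median -1.19). Over genes, the deviations of same-numbered libraries from their group means correlated at 0.289 in the knockdown and 0.101 with CPX, with 2 pairs each. Both values are above 0. As given above, CD8 T cell markers went by replicate number in the hairpin groups. Most members were higher in replicate 1 with both DMSO and CPX. The labels do not say that a number marks a shared culture or day, so the main tests do not use it as a pair. Whether same-numbered libraries share an origin was not tested. With the replicate number as a block 27 members rose with CPX and 2 fell, and the knockdown counts were 57 and 7, as without the block, and the difference counts 51 and 4. Summed with its pseudogenes, Rpl28 turned to -0.04 in the knockdown. The summed ratio in the knockdown was 0.661 with TMM scaling and 0.7001 to 0.7241 with 1 library left out, and that of CPX 1.18 to 1.43. Per transcript length the range of the core genes was 11240-fold with the scrambled hairpin and 20.1-fold with DMSO. With 1 library left out it was 4158 to 30410-fold and 6.73 to 7.28-fold. The summing with pseudogenes for the difference, the settings for the sums and those for the range of levels were chosen after seeing the data. With 2 libraries a group, the spread of a single gene is known poorly, and members at a few reads cannot carry a fold change.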

Other observations

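The named pseudogenes of the members were tested in the same fits. Over all genes tested in the knockdown, 26.7% were called lower and 29.3% higher. Of the 68 named pseudogenes, 35 passed the filter in the knockdown, 24 were called lower and 1 higher, Rps16-ps2 (edgeR, median log2 fold change -0.65). Rpl14-ps1 was the highest of them at 10828 and 10639 reads with the scrambled hairpin against 7769 and 7256 reads with the Pcbp1 hairpin (-0.69). With CPX 40 pseudogenes were tested, 37 were above 0 and 1 was called higher, Rpl27-ps1 (limma, median 0.34). Over all 11466 genes tested with CPX, 5293 were above 0, 19.9% were called higher and 24.8% lower. Rpl27-ps1 stood at 3 and 7 units with DMSO and at 45 and 31 units with CPX. It passed the filter only through the group in which it was high, so its value is a description and its call supports nothing. The pseudogenes named here were chosen after their values were seen, and reads of a pseudogene cannot be parted with certainty from those of its parent.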
